A study of Mus musculus with 27 samples.

Results

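Aldh1a3, Gast, Neurog3 and Cck are 4 genes whose transcripts are used as markers of beta cells that lose their mature identity. They were taken by symbol from the 3 tables of read counts, in which all 4 were present among 61346 gene symbols, and they are described in every group that was sequenced. The study concerns Nkx2.2, a homeodomain transcription factor of the pancreas and the ventral spinal cord, and a mutation of its conserved SD domain (SDmut). RNA was sequenced from whole pancreata at E15.5 of controls (n = 3) and of mutants (SDmut, n = 4). Islets came from 8-week controls (n = 2) and 8-week mice whose libraries are named betaSD, a beta-cell SD-domain mutation (betaSDmut, n = 3), and from 4-week controls (n = 2) and 4-week mice whose libraries are named as a beta-cell knockout (betaKO, n = 2). The labels do not name the Cre driver, the zygosity or the genotype of the controls, and islets hold alpha, delta and other cells beside beta cells. Motor neuron progenitors were made from inducible mouse embryonic stem cell lines and collected at day 4. An iNkx2.2 line received 1 µg/ml doxycycline for about 16 h to express wildtype Nkx2.2 (iNkx2.2, n = 3), the same line without doxycycline was the control (pMN, n = 3), and an iSDmut line received doxycycline to express the SD-domain mutant (iSDmut, n = 2), so that the mutant rests on a single line and the control shares the line of the wildtype transgene only. Nkx2.2 binding was mapped by chromatin immunoprecipitation sequencing (ChIP-seq) in MIN6 cells, a mouse beta-cell tumour line (n = 2).

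Aldh1a3 is an aldehyde dehydrogenase that makes retinoic acid from retinaldehyde and is low in healthy mature beta cells. Gast and Cck encode gastrin and cholecystokinin, related peptide hormones that are cut from prohormones, amidated at the C-terminus and sensed by the receptors Cckar and Cckbr. Gastrin is normally made by G cells of the stomach and transiently by the fetal pancreas, and cholecystokinin by enteroendocrine I cells and neurons. Neurog3 is the basic helix-loop-helix factor that starts endocrine differentiation in the embryonic pancreas, is restrained by Notch signalling through Hes1, and switches on Neurod1, Insm1, Pax4 and Nkx2.2 itself. The return of these transcripts in adult islets is commonly read as a partial move of beta cells towards a progenitor-like state.

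Depth was 38447596 to 41840638 counts per library at E15.5, 12398041 to 32385406 in islets and 17757991 to 46840701 in progenitors. Levels are CPM, a count divided by the library total and multiplied by 1000000, after scaling by the trimmed mean of M-values (TMM), and the 3 tables were scaled separately. Differences were tested over all genes of a table with edgeR's quasi-likelihood test, and "called" means a Benjamini-Hochberg adjusted p under 0.05. Where nothing states that libraries are separate animals or cultures, p-values measure only the spread between these libraries. Nkx2-2 transcripts were not lower in betaKO islets (log2 fold change -0.18, SE 0.237, edgeR adjusted p 0.779), so "betaKO" stands here for the libraries with that label. Xist, the transcript of the inactive X chromosome, was at 700 to 1570 CPM in E15.5 control 2, SDmut 2 and SDmut 4, and in islets it was at 740 CPM in betaSDmut replicate 1 and 987 CPM in 4-week control 1. The other pancreatic libraries were at 3.51 CPM or less. Muscle markers (Acta1, Myh3, Myh8, Ckm, Tnnt3) summed to 4299 CPM in E15.5 control 3 and 4949 CPM in SDmut 2, against 7.05 to 54.9 CPM in the other 5 E15.5 libraries.

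Aldh1a3 was the member that edgeR called as higher in 8-week betaSDmut islets. Its level was 1.57 and 0.693 CPM in the 2 controls and 13.2, 20.9 and 25.1 CPM in the 3 betaSDmut libraries. Every mutant library lay above both controls, and the lowest mutant was also above both 4-week controls. Aldh1a3 rose by 4.13 on the log2 scale (SE 0.46, 17.5-fold, edgeR adjusted p 0.0094). It was the only 1 of the 4 members that was called, in a comparison in which 7.94% of the 15413 genes tested were called, 4.07% of them as higher. In the authors' deposited table for the same comparison its log2 fold change was 4.18 (p 0.00396) and it was marked as changed. The direction was the same in all 12 alternative fits, with log2 fold changes from 3.65 to 4.82 and adjusted p-values from 5.51e-21 to 0.107, and it was called in 9 of them. It was not called without control 1 (4.82, edgeR adjusted p 0.079) or without control 2 (3.65, edgeR adjusted p 0.107). From bulk RNA, more Aldh1a3 per cell and more cells with Aldh1a3 cannot be told apart.

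In 4-week betaKO islets Aldh1a3 was at 12.2 and 11.6 CPM, and the 2 controls were at 6.36 and 1.07 CPM. Both betaKO libraries were above both controls, but the controls differed from each other more than the betaKO libraries did. The log2 fold change was 1.62 (SE 0.831, edgeR adjusted p 0.475), and of the 2 members that passed the count filter none was called (1 had an unadjusted p under 0.05, and DESeq2 called none), where 1.56% of 14942 genes were. This value depended on which of the 2 controls was kept. Without control 1, the 4-week library with high Xist, the log2 fold change was 3.47, and without control 2 it was 0.90. The part of Xist or of other sample properties in this was not tested. The authors' deposited table for 3 groups gives log2 fold changes of 2.56 for betaKO (p 0.0103, not marked as changed) and 3.21 for betaSDmut (p 0.0016, marked as changed). It sets both against a single control group, so these values are not age-matched like those of the fits here. The effects of betaSDmut and betaKO, each against its own age-matched controls, differed by 2.54 for Aldh1a3 on the log2 scale (SE 0.991, edgeR adjusted p 0.327). For this difference 0 of 4 members were called by edgeR or DESeq2 (2 had an unadjusted p under 0.05, namely Aldh1a3 and Gast), beside 1.21% of 15995 genes. The difference for Aldh1a3 shrank to 0.67 without 4-week control 1. All betaSDmut islets were 8-week and all betaKO islets 4-week. In every difference of these effects, model and age therefore cannot be told apart.

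**Figure D1:**
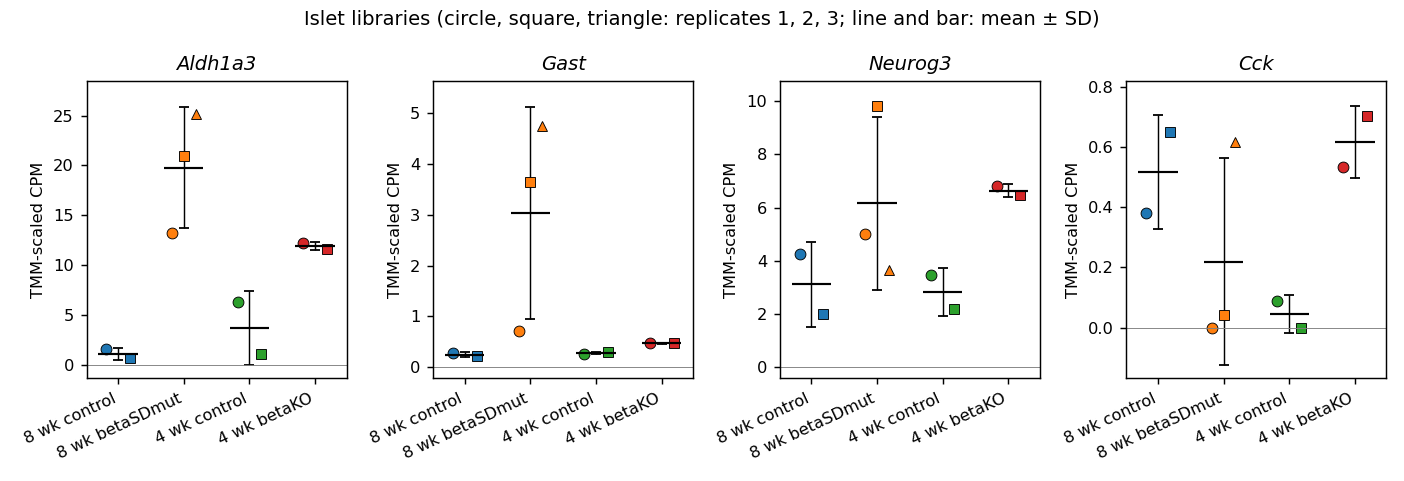
TMM-scaled CPM of the 4 members in each islet library on linear axes; points are libraries, black lines are group means and bars are ± SD. Aldh1a3 is at 13.2 to 25.1 CPM in betaSDmut and 0.693 to 1.57 CPM in 8-week controls, and the 4-week controls differ from each other (6.36 and 1.07 CPM).

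Gast was low in all islets except betaSDmut replicates 2 and 3. Its raw counts were 6 and 5 in 8-week controls and 17, 88 and 131 in betaSDmut replicates 1 to 3, which correspond to 0.286 and 0.217 CPM and to 0.708, 3.63 and 4.75 CPM. All 3 mutants lay above both controls, and replicate 1, the betaSDmut library with high Xist, was the lowest. For Gast the log2 fold change was 3.57 (SE 0.961, 11.9-fold) and it was not called (edgeR adjusted p 0.0866). Without replicate 1 it was 4.04 and called (edgeR adjusted p 0.00225), and DESeq2 called it with all 5 libraries (3.60, DESeq2 adjusted p 0.000856). Fitted together with the 4-week islets it was also called (3.57, edgeR adjusted p 0.0323). The part of Xist or of other sample properties in this split was not tested. In the authors' deposited table the log2 fold change was 3.14 (p 0.111), not marked as changed. In 4-week islets the raw counts were 9 and 5 in controls and 8 and 6 in betaKO, too few to pass the filter. The ratio of the summed counts per total was 1.59 (95% counting interval 0.701 to 3.59). The betaSDmut effect minus the betaKO effect was 2.83 for Gast (SE 1.19, edgeR adjusted p 0.349), and 3.30 without betaSDmut replicate 1 (edgeR adjusted p 0.0332).

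Of the 4 members, Gast was the one with Nkx2.2 sites close to its start. The authors' final list has 6473 sites in MIN6 cells with a log2 CPM per replicate. Gast lies on chromosome 11 at 100334407 to 100336996 (GRCm38, plus strand), and 3 final sites lay within 10 kb of its start. Within that distance 7.28% of 21938 protein-coding genes had a site and 0.0137% had 3 or more, namely Gast, Myt1l and Tgif1. Over all 10749 events 0.201% of genes had 3 or more within 10 kb. Gast also had 3 final sites within 50 and within 100 kb, where 1.4% and 5.46% of genes had 3 or more. The site at -6898 bases, upstream and which the annotation places between genes, ranked 21 of 6473 by mean log2 CPM (9.98 and 9.95 in replicates 1 and 2, with 790 and 583 reads). Its nearest gene is Eif1, 5413 bases away. The site at -3814 bases, also intergenic, was weaker (log2 CPM 7.17 and 6.95, rank 2411). The site 1552 bases downstream of the start, in an intron of Gast, ranked 164 (log2 CPM 9.0 and 9.08). The input library was not used here, so no enrichment over input is given. Binding in MIN6 cells was measured with wildtype Nkx2.2 and says nothing on binding in mutant islets.

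**Figure D2:**
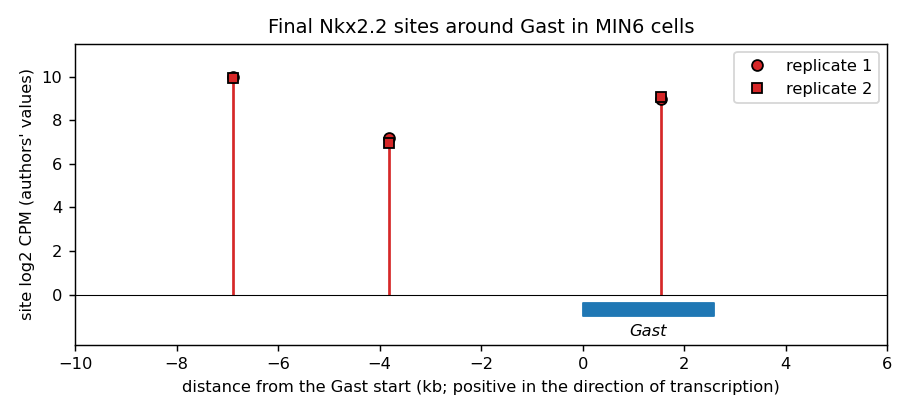
The authors' log2 CPM of the 3 final Nkx2.2 sites near Gast in the 2 MIN6 replicates (circles and squares) against distance from the Gast start in kb; the blue bar is the gene. The strongest site, at -6898 bases, has a log2 CPM of 9.98 and 9.95, and the intronic site at 1552 bases 9.0 and 9.08.

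The 300 bases around each of these sites are shown because they are the sequences under the binding beside the member with the clustered sites. They are plus-strand sequence of GRCm38, none of them overlaps an exon, and capitals mark matches on either strand to AAGTG, the core of NK2-class homeodomain sites, and to an inverted repeat. The repeat is GTTGC, a spacer of 3 bases that starts with cytosine, and the reverse complement of the same 5 letters.
Gast site chr11:100327359-100327658: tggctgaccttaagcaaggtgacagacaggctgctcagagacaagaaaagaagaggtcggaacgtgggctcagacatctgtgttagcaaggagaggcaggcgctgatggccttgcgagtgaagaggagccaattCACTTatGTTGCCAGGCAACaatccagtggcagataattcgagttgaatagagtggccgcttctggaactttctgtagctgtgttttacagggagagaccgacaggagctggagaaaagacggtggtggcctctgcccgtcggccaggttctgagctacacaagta
Gast site chr11:100330443-100330742: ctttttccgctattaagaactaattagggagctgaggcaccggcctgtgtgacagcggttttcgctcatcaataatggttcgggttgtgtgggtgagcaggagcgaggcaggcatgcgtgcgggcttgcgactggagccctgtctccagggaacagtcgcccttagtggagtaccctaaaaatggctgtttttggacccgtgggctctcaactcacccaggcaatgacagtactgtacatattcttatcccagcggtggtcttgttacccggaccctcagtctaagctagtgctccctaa
Gast site chr11:100335809-100336108: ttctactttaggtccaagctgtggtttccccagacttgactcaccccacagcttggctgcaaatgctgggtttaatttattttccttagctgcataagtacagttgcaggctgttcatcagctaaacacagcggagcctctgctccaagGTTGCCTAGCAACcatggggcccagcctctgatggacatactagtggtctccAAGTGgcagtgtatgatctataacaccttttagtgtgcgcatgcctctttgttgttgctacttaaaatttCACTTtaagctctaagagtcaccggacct
AAGTG occurred 1 time in the strongest window, 14 bases from its centre, 0 times in the weakest and 2 times in the intronic window, the nearer 53 bases from the centre. Of all 6473 final-site windows 53.5% held AAGTG, so its presence is common. The longer form TNAAGTG, in 20.1% of the windows, occurred only in the intronic window of Gast. Both strong windows held this inverted repeat, 3 and 5 bases from the window centre, and the weak window did not. This pattern, which has the layout of the X-box bound by RFX factors, was chosen after the Gast sequences had been read. It occurred in 1.7% of the final-site windows and in 0.128% of 32851 RefSeq promoter windows of 250 bases. A match is a description of the letters and does not show a bound site. The 250 bases before the start (RefSeq, GRCm38.p6) were present for Gast, Neurog3 and Cck, 3 of the 4 members. AAGTG occurred 1 time before Cck and 0 times before Gast and Neurog3, where 40.7% of promoters hold it.

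The other members had no final site within 50 kb. Neurog3 (chromosome 10, 62133090 to 62134763, plus strand) had 2 within 100 kb, 83.7 and 95.2 kb away in introns of Tspan15, which ranked 5098 and 6133 of 6473. Cck (chromosome 9, 121489824 to 121495694, minus strand) had 1 at 81.0 kb, 1118 bases from Lyzl4, with rank 3039. Within 100 kb 40.9% of genes have a final site. Aldh1a3 (chromosome 7, 66390890 to 66427517, minus strand), the member called in betaSDmut islets, had none within that distance. Its nearest final site was 226.5 kb away. Taking all 10749 events instead of the final list changed none of these counts for the 4 members.

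Neurog3 was detected in all 9 islet libraries. It was at 4.25 and 1.99 CPM in 8-week controls and at 5.0, 9.83 and 3.66 CPM in betaSDmut islets. The groups overlapped, since replicate 3 lay between the controls. With SE 0.533 the log2 fold change of Neurog3 was 0.97 (edgeR adjusted p 0.314). It ranged from 0.48 without betaSDmut replicate 2 to 1.61 without control 1, and the authors' deposited table gives 0.94 (p 0.166). In 4-week islets Neurog3 was at 3.48 and 2.21 CPM in controls and at 6.81 and 6.48 CPM in betaKO. These groups did not overlap, and the log2 fold change was 1.21 (SE 0.303, unadjusted p 0.00808), not called over all genes (edgeR adjusted p 0.15). The betaSDmut effect minus the betaKO effect for Neurog3 was -0.22 (SE 0.701, edgeR adjusted p 0.932), and its sign depended on the libraries used.

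Delta-cell markers were set beside Neurog3. Sst, the somatostatin gene of delta cells, was among the 3 genes most like Neurog3 over the 9 libraries. The summed level of the 4 delta markers (Sst, Hhex, Rbp4 and Ghsr, Rbp4 being also in the retinoid list), all detected in each group, was 2083 to 3089 CPM in 8-week controls and 4953 to 6524 CPM in betaSDmut. By library, betaSDmut replicate 2 was the highest of the 9 for both this sum (6524 CPM) and Neurog3 (9.83 CPM). The sum was 5089 CPM in betaSDmut replicate 3 with Neurog3 at 3.66 CPM, and 3089 CPM in 8-week control 1 with Neurog3 at 4.25 CPM. Rbp4 alone rose by 3.68 on the log2 scale, while Sst was at 2921 and 1925 CPM in 8-week controls and at 3255, 4864 and 3259 CPM in betaSDmut (log2 fold change 0.63, SE 0.262, edgeR adjusted p 0.203). In 4-week islets the 4 delta markers summed to 1893 to 3440 CPM in controls and 5143 to 6436 CPM in betaKO. The summed level of the 10 acinar markers was 5992 to 11131 CPM in 4-week controls and 14567 to 41244 CPM in betaKO, and 8050 to 13433 CPM in 8-week controls and 956 to 10825 CPM in betaSDmut. The summed level of the 5 alpha markers was 24966 to 29159 CPM in 4-week controls and 50571 to 62418 CPM in betaKO, and 31244 to 39521 CPM in 8-week controls and 21859 to 32198 CPM in betaSDmut. The 2 PP-cell markers (Ppy and Pyy) summed to 3481 to 3559 CPM in 4-week controls and 8339 to 10855 CPM in betaKO, and to 4368 to 4747 CPM in 8-week controls and 3985 to 5367 CPM in betaSDmut. The part of these cell types in the levels of the members was not tested.

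Cck was near the limit of detection in islets. Its raw counts were 8 and 15 in 8-week controls and 0, 1 and 17 in betaSDmut. After scaling these were 0.382 and 0.650 CPM in controls and 0, 0.0413 and 0.616 CPM in betaSDmut, so that replicate 3 lay between the controls and the other mutants below them. The log2 fold change of -1.16 (SE 1.23) was not called (edgeR adjusted p 0.598), and it ranged from -1.504 to -0.60 when 1 library other than betaSDmut replicate 3 was left out; without that one Cck was too low to be tested. In 4-week islets the raw counts were 3 and 0 in controls and 9 and 9 in betaKO. Cck did not pass the count filter there. The summed counts per total were 9.52 times as high in betaKO (95% counting interval 2.78 to 50.5), and without a count filter the test did not call it (edgeR adjusted p 0.258). Unlike Aldh1a3, Cck was not above both controls in any betaSDmut library. Among betaSDmut replicates 1 to 3 both members had the same order, with Aldh1a3 at 13.2, 20.9 and 25.1 CPM and Cck at 0, 1 and 17 counts. In betaKO islets both members were above both 4-week controls in each library. The betaSDmut effect minus the betaKO effect for Cck was -4.49 (SE 1.96, edgeR adjusted p 0.368).

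Across members, levels can be set side by side in islets as the authors' FPKM, which divides by transcript length. In betaSDmut islets the FPKM was 13.2 ± 9.51 for Gast, 7.68 ± 2.48 for Aldh1a3, 5.45 ± 3.13 for Neurog3 and 0.603 ± 0.95 for Cck (SD, n = 3). The first 3 lay within their spread of each other. In 8-week controls the order was different, with Neurog3 at 2.76 ± 1.44, Cck at 1.2 ± 0.437, Gast at 0.955 ± 0.395 and Aldh1a3 at 0.432 ± 0.22 FPKM (SD, n = 2).

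**Figure D3:**
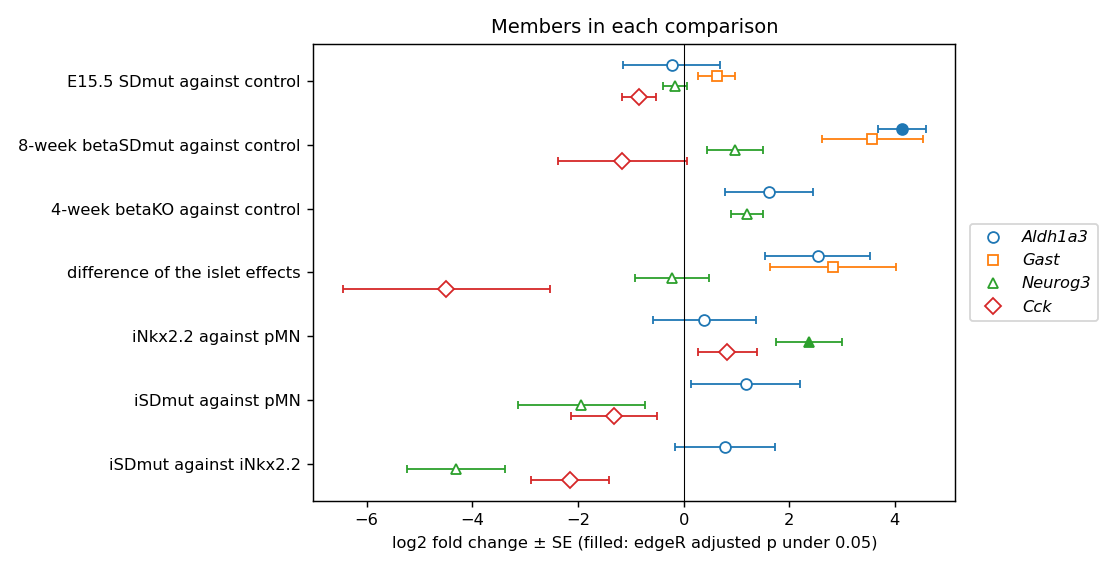
Log2 fold change (points) ± SE (bars) of each member that passed the count filter, by comparison; filled points had an edgeR adjusted p under 0.05. The filled points are Aldh1a3 in 8-week betaSDmut islets (4.13) and Neurog3 in iNkx2.2 progenitors (2.37).

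The embryonic comparison asked whether the same transcripts change when the mutation is present throughout pancreas development. None of the 4 members was called at E15.5 by edgeR or DESeq2, and 1 had an unadjusted p under 0.05. Of 18723 genes 0.00534% were called, so a share of members that is 0 is near the background. Neurog3 was abundant at this stage, as the wave of endocrine differentiation is under way. It was at 77.3, 60.0 and 55.0 CPM in controls and at 45.6, 42.4, 71.1 and 70.1 CPM in SDmut. The groups overlapped (log2 fold change -0.16, SE 0.224, edgeR adjusted p 1.00).

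Gast was at 3.78, 3.08 and 2.00 CPM in E15.5 controls and at 4.03, 2.75, 6.27 and 5.2 CPM in SDmut. Of the 4 mutants 3 lay above all controls and SDmut 2 did not. For Gast the log2 fold change was 0.63 (SE 0.351, unadjusted p 0.115, edgeR adjusted p 1.00). Cck was at 5.79, 4.74 and 7.55 CPM in controls and at 2.12, 3.08, 5.0 and 3.17 CPM in SDmut. Only SDmut 3 reached the range of the controls. For Cck it was -0.85 (SE 0.32, unadjusted p 0.0307, edgeR adjusted p 1.00), and the authors' deposited table gives a p of 0.0123 and an adjusted p of 1.00. Without the 2 libraries with muscle transcripts the log2 fold change of Cck was -0.62 (unadjusted p 0.173).

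Aldh1a3 at E15.5 was highest in the 2 libraries with muscle transcripts. It was at 1.89, 3.58 and 8.67 CPM in controls 1 to 3 and at 2.40, 11.1, 1.86 and 0.739 CPM in SDmut 1 to 4. Control 3 and SDmut 2, at 8.67 and 11.1 CPM, are the libraries whose muscle markers summed to 4299 and 4949 CPM. The part of muscle in this was not tested. The log2 fold change was -0.22 (SE 0.919, edgeR adjusted p 1.00) with all libraries and -0.71 (SE 0.561, edgeR adjusted p 0.999) without these 2. Leaving out SDmut 2 alone gave -1.49 (SE 0.66, unadjusted p 0.0593, edgeR adjusted p 0.83). It was 0.56 without control 3, 0.02 without SDmut 3 and 0.12 without SDmut 4.

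**Figure D4:**
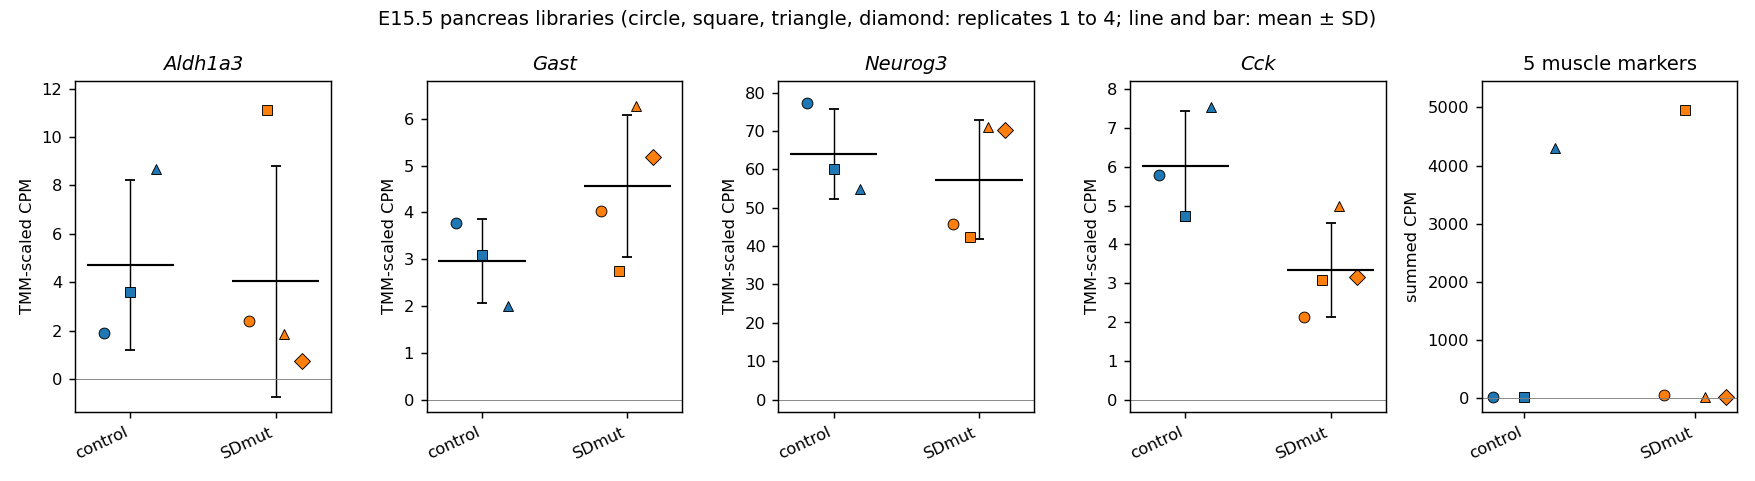
TMM-scaled CPM of the 4 members in each E15.5 library, with group means (lines) and ± SD (bars), and the summed CPM of 5 muscle markers (points only). The square SDmut point and the triangle control point are highest for both Aldh1a3 (11.1 and 8.67 CPM) and muscle (4949 and 4299 CPM).

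In motor neuron progenitors the comparison was between no induction, wildtype Nkx2.2 and the SD-domain mutant. The transgenes were expressed, with Nkx2-2 at 343 to 378 CPM in iNkx2.2, 245 and 248 CPM in iSDmut and 5.40 to 11.6 CPM in pMN. All members were rare in these cells, at under 1 CPM in every library. Neurog3 rose with wildtype Nkx2.2. Its raw counts were 2, 3 and 1 in pMN, 20, 18 and 14 in iNkx2.2, and 0 and 1 in iSDmut. The iNkx2.2 libraries were above all others, at 0.408, 0.806 and 0.528 CPM, against 0.0423 to 0.182 CPM in pMN. The log2 fold change of iNkx2.2 against pMN was 2.37 (SE 0.623, 5.18-fold, edgeR adjusted p 0.0433). Of the 3 members that passed the filter it was the only 1 called, where 9.49% of 15653 genes were called and 4.71% as higher. This fit held no pairing of libraries. When same-numbered libraries, those of iSDmut included, shared a replicate block, 4629 genes were called instead of 1486. Neurog3 was then at 2.39 (edgeR adjusted p 0.0134). Of 16 alternatives, 12 gave an adjusted p for Neurog3. It ranged there from 0.0134 to 0.131, and Neurog3 was called in 6 of the 12. DESeq2 did not call it (2.42, adjusted p 0.0887). Nor was it called without pMN 1, 2 or 3 (2.42, 2.88 and 1.93) or without iNkx2.2 replicate 1 or 2 (2.60 and 2.08), with edgeR adjusted p-values from 0.0741 to 0.131. In the fit of lane 2 alone it did not pass the count filter, lane 4 holds 1 pMN and 1 iNkx2.2 library, and iSDmut replicate 2 alone was run in lane 3.

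With the SD-domain mutant Neurog3 had 1 count in 2 libraries. Per total count it was 22.8 times as high in iNkx2.2 as in iSDmut (95% counting interval 3.91 to 917), and 4.12 times as high in pMN as in iSDmut (0.5 to 190), an interval that includes no difference. The direct test gave a log2 fold change of -4.31 for iSDmut against iNkx2.2 (SE 0.926, unadjusted p 0.000995, edgeR adjusted p 0.105). This comparison called 0.281% of genes and 0 of 3 members (2 had an unadjusted p under 0.05, Neurog3 and Cck). DESeq2 gave no adjusted p for the members in either comparison with iSDmut. The difference was called without a count filter (-4.34, edgeR adjusted p 0.0482). Against pMN the log2 fold change of iSDmut was -1.94 (SE 1.21, edgeR adjusted p 0.409), in a comparison that called 3.54% of genes and 0 of 3 members (0 with an unadjusted p under 0.05).

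Of the 1674 exonic bases of Neurog3 in GENCODE M21 (GRCm38), 273 are also exon of Fam241b on the other strand, and the use of strand in counting is not given in the sources used here. Reads from these bases cannot be told apart between both genes. Fam241b, listed in the progenitor table under its older symbol 2010107G23Rik, had 92, 96 and 104 counts in pMN, 666, 322 and 261 in iNkx2.2, and 118 and 242 in iSDmut. It too was higher with iNkx2.2 (log2 fold change 1.31, SE 0.231, edgeR adjusted p 0.0102). The part of Fam241b in the Neurog3 counts was not tested. In islets its level did not follow Neurog3, with log2 fold changes of -0.12 in betaSDmut and 0.11 in betaKO (edgeR adjusted p 0.531 and 0.762).

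Cck had raw counts of 2, 8 and 4 in pMN, 19, 13 and 10 in iNkx2.2, and 2 and 2 in iSDmut. Its level in iSDmut (0.112 and 0.0831 CPM) lay below every iNkx2.2 library (0.377 to 0.582 CPM). The log2 fold change was 0.83 for iNkx2.2 against pMN (SE 0.553, edgeR adjusted p 0.389), -1.32 for iSDmut against pMN (SE 0.818, edgeR adjusted p 0.409) and -2.15 for iSDmut against iNkx2.2 (SE 0.74, unadjusted p 0.0164, edgeR adjusted p 0.272). The comparisons share libraries, and none was called. Aldh1a3 had 2, 1 and 10 counts in pMN, 7, 4 and 15 in iNkx2.2, and 1 and 21 in iSDmut, so that each group overlapped the others and the 2 iSDmut libraries stood at both ends. Its log2 fold changes were 0.39 for iNkx2.2 against pMN, 1.18 for iSDmut against pMN and 0.78 for iSDmut against iNkx2.2 (edgeR adjusted p 0.846, 0.569 and 0.76). Without iSDmut replicate 2 the last 2 became -1.85 and -2.24. Gast had 0 counts in all 8 libraries, which allows a level of up to 0.0612 to 0.182 CPM per library (3 counts, counting error only).

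**Figure D5:**
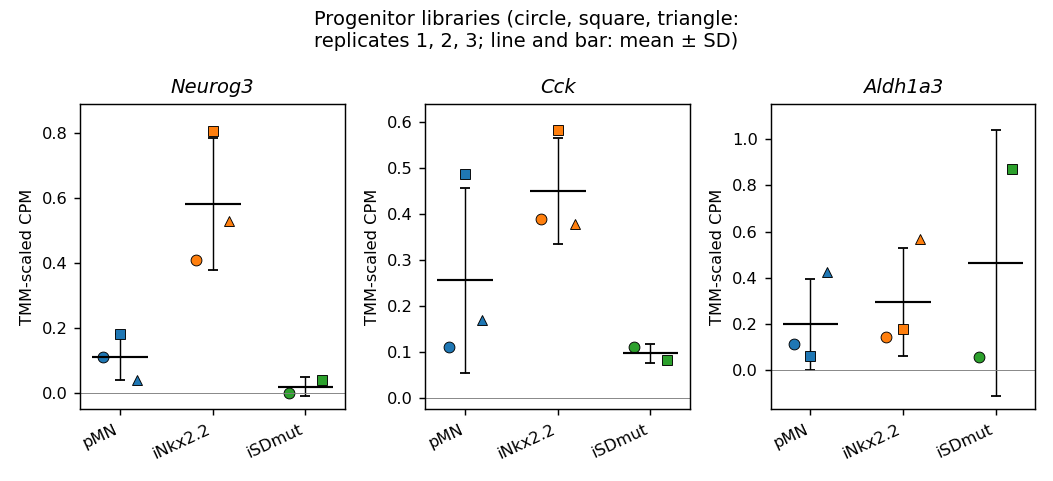
TMM-scaled CPM of Neurog3, Cck and Aldh1a3 in each progenitor library, with group means (lines) and ± SD (bars); Gast had 0 counts throughout. Neurog3 is at 0.408 to 0.806 CPM in iNkx2.2, above every pMN (0.0423 to 0.182 CPM) and iSDmut library.

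Set side by side over the 9 RNA groups, without a test since the tables were scaled separately, the members had different orders. The E15.5 libraries are whole pancreas and the adult ones islets, so a like CPM does not mean a like level per endocrine cell. Aldh1a3 was highest in betaSDmut islets (19.8 ± 6.04 CPM, SD, n = 3), followed by betaKO islets (11.9 ± 0.398, SD, n = 2), and the ranges of these groups did not overlap with each other or with the next. E15.5 controls (4.71 ± 3.53, n = 3), E15.5 SDmut (4.03 ± 4.78, n = 4), 4-week controls (3.72 ± 3.74, n = 2) and 8-week controls (1.13 ± 0.623, n = 2) followed, each overlapping its neighbour, and the progenitors were lowest. Gast was highest in E15.5 SDmut (4.56 ± 1.52 CPM), betaSDmut islets (3.03 ± 2.09) and E15.5 controls (2.95 ± 0.898), whose ranges overlapped. The other islet groups followed at 0.252 to 0.471 CPM. Of the 3 betaSDmut libraries, replicates 2 and 3 lay in the range of the E15.5 libraries and replicate 1, at 0.708 CPM, below it. Neurog3 was highest at E15.5 (64.1 ± 11.7 CPM in controls and 57.3 ± 15.4 in SDmut). The next group, betaKO islets (6.64 ± 0.232), was 8.63 times lower than E15.5 SDmut, with no overlap. Cck was likewise highest at E15.5 (6.03 ± 1.42 CPM in controls and 3.3 ± 1.2 in SDmut) and at 0.0446 to 0.618 CPM in every adult and progenitor group.

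The pathways around the members were described from lists of genes. The retinoid list holds carriers, enzymes and receptors of retinoic acid signalling other than Aldh1a3. In 8-week betaSDmut islets 2 of 15 tested genes rose and 2 fell (over all genes 7.94% were called, 4.07% as higher), with a median log2 fold change of -0.25 against 0.01 over all genes. Rbp4, the retinol-binding protein of blood and also a delta-cell marker, rose by 3.68 on the log2 scale (SE 0.122, edgeR adjusted p 0.000382). Crabp1, a cytosolic retinoic acid-binding protein, rose by 4.31 (SE 0.888, edgeR adjusted p 0.0424). The receptor genes Rara and Rxra fell by 1.18 and 0.39 (edgeR adjusted p 0.00677 and 0.0395). The 4 calls held in 12 (Rbp4), 5 of 9 (Crabp1), 10 of 12 (Rara) and 6 of 12 (Rxra) alternatives.

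In 4-week betaKO islets 3 of 15 retinoid genes rose and 0 fell (median 0.18 against -0.004 over all genes, of which 1.56% were called). Rbp4 rose by 2.89 (edgeR adjusted p 0.00586), the retinal dehydrogenase family member Aldh1a7 by 3.27 (edgeR adjusted p 0.0448) and Ttr, the carrier of Rbp4 and thyroid hormone, by 0.76 (edgeR adjusted p 0.0468). The 3 calls held in 11 of 11 (Rbp4), 6 of 11 (Aldh1a7) and 4 of 11 (Ttr) alternatives. The effects of both models, which also differ in age, differed for Rbp4 (0.80 higher in betaSDmut, edgeR adjusted p 0.0472) and Aldh1a7 (-4.54, edgeR adjusted p 0.0436). These calls held in 5 of 15 (Rbp4) and 7 of 15 (Aldh1a7) alternatives. The difference was not called for the other 14 of 16 genes, where 1.21% of all genes were called. At E15.5 none of 22 retinoid genes was called by edgeR or DESeq2, and 0 had an unadjusted p under 0.05. In progenitors 1 of 22 rose and 6 fell with iNkx2.2 (9.49% of all genes were called). Lrat, which stores retinol as esters, was at 2.57 and Rxra at -0.80. With iSDmut 1 rose and 4 fell against pMN (3.54% of all genes were called), with Aldh1a2 at 2.04 and Aldh1a1 at -2.37. Against iNkx2.2, iSDmut differed in 1 of 22, Rarb (0.85, edgeR adjusted p 0.0384), where 0.281% of all genes were called.

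The list for gastrin and cholecystokinin holds the enzymes that process both prohormones and both receptors. Pam, the enzyme that amidates the C-terminus of both peptides, rose in both islet models, by 0.93 in betaSDmut (SE 0.148, edgeR adjusted p 0.0218) and by 0.73 in betaKO (SE 0.106, edgeR adjusted p 0.0468). It was 1 of 10 genes called in each, with medians of 0.12 and 0.28 against 0.01 and -0.004 over all genes. The call of Pam held in 9 of 12 alternatives in betaSDmut and in 5 of 11 in betaKO. Of all genes 7.94% were called in betaSDmut and 1.56% in betaKO. For the difference between the models, 0 of 10 genes were called (2 had an unadjusted p under 0.05, and DESeq2 called 1), where 1.21% of all genes were. At E15.5 none of 11 was called and 0 had an unadjusted p under 0.05 (DESeq2 called 0). In iNkx2.2 progenitors the receptor gene Cckar rose by 2.10 (SE 0.338, edgeR adjusted p 0.0066), which held in 16 of 16 alternatives, and Pcsk1n, which encodes an inhibitor of the convertase Pcsk1, rose by 1.62 (edgeR adjusted p 0.0495). In iSDmut 0 of 10 were called against pMN (4 had an unadjusted p under 0.05, DESeq2 called 2) and 0 against iNkx2.2 (1 and 0). Of all genes 3.54% and 0.281% were called in these 2 comparisons.

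Other gut-type peptide genes were tested too. In betaSDmut islets, where 7.94% of all genes were called, 0 of 7 were called (3 had an unadjusted p under 0.05, DESeq2 called 2, median -0.81). Cartpt, which encodes the CART peptide, had a log2 fold change of 4.45 there (SE 0.974), which was not called (edgeR adjusted p 0.0547), and one of 0.55 in betaKO (edgeR adjusted p 0.747); it was named after its values were seen. In betaKO islets, where 1.56% of all genes were called, Npy, which encodes neuropeptide Y, was the 1 of 9 that rose. It rose by 3.69 (SE 0.192, edgeR adjusted p 0.0147), and its effect in betaSDmut minus that in betaKO was -4.62 (edgeR adjusted p 0.0113). At E15.5 none of 11 was called (3 had an unadjusted p under 0.05, DESeq2 called 2). In progenitors Trh fell by 1.67 with iNkx2.2, 1 of 5 tested, where 9.49% of all genes were called.

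Genes upstream of Neurog3, such as Sox9, Hes1 and the Notch genes, were not called in islets. In betaSDmut 0 of 14 were (2 had an unadjusted p under 0.05, DESeq2 called 0) and in betaKO 0 of 14 (3 and 0). Over all genes 7.94% were called in betaSDmut and 1.56% in betaKO, so 0 of 14 is near these shares. Of 18 downstream genes tested in betaSDmut islets, 2 rose and 2 fell, with a median of 0.01 as over all genes, of which 7.94% were called. Isl1, a LIM homeodomain factor of endocrine cells, rose by 0.98 (edgeR adjusted p 0.00504), and St18 and Insm1, endocrine zinc-finger factors, fell by 0.68 and 0.50 (edgeR adjusted p 0.00789 and 0.0206). In betaKO islets 0 of 18 were called (9 had an unadjusted p under 0.05, DESeq2 called 5). At E15.5 none of 15 upstream and 20 downstream genes was called (0 and 4 had an unadjusted p under 0.05, DESeq2 called 0 and 1).

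In iNkx2.2 progenitors 6 of 17 downstream genes rose and 3 fell, Nkx2-2 itself, the transgene, being 1 of the 6 (median 0.41 against -0.01 over all genes, of which 9.49% were called and 4.71% as higher). Insm1 rose by 2.55 and St18 by 1.36, while Pax6 fell by 5.54 and Neurod1 by 1.57 (edgeR adjusted p 0.000362, 0.00352, 0.000102 and 0.0433). Neurog3, at under 1 CPM, rose and its target Neurod1 fell, each close to the threshold (edgeR adjusted p 0.0433 for both). With iSDmut Insm1 and St18 rose too, by 1.81 and 1.45 against pMN (edgeR adjusted p 0.0063 and 0.00788), and Neurog3 had 1 count there. The part of Neurog3 in the levels of these genes was not tested. The direct test of iSDmut against iNkx2.2 called Pax6 (2.77) and Amotl2 (-0.82) of the 17 genes (edgeR adjusted p 0.0304 and 0.041). Jag1, a Notch ligand, rose by 0.81 with iNkx2.2 and by 1.61 with iSDmut against pMN, and 1 further upstream gene, Onecut1, fell by 1.52 with iNkx2.2.

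Other genes associated with loss of beta-cell maturity were also tested. In betaSDmut 3 of 15 rose and 0 fell (median 0.53), where 7.94% of all genes were called and 4.07% as higher. Ldha, lactate dehydrogenase A, which mature beta cells keep low, rose by 4.15 (SE 0.19, edgeR adjusted p 0.000868), Aass, an enzyme of lysine breakdown, by 4.65 (SE 0.479, edgeR adjusted p 0.00901) and Vim, the intermediate filament of mesenchymal cells, by 0.84 (edgeR adjusted p 0.0411). In betaKO 0 of 14 were called (3 had an unadjusted p under 0.05, DESeq2 called 2; median 0.41). The difference between both models was called for 0 of 15 (6 had an unadjusted p under 0.05, DESeq2 called 1), where 1.21% of all genes were called. Of 15 genes of mature beta cells 5 fell in betaSDmut (median -0.62), Chga, Slc30a8, Glp1r, Slc2a2 and Nkx6-1, by 0.89 to 1.2 on the log2 scale. At E15.5 none of 13 maturity-loss genes was called (0 had an unadjusted p under 0.05, DESeq2 called 0), nor any of the 15 mature genes (8 and 4, median -1.29 against 0.01 over all genes). In betaKO 2 of 15 mature genes fell (median -0.58), Ucn3 by 1.41 and Glp1r by 0.95, where 1.56% of all genes were called. The betaSDmut effect minus the betaKO effect was called for Chga (-1.2) and, among genes downstream of Neurog3, for Cdkn1a (-1.25). These calls held in 9 of 15 (Chga) and 5 of 15 (Cdkn1a) alternatives. In progenitors Mycl and Hk2 of the maturity-loss list fell by 0.66 and 0.73 with iNkx2.2, and Hk2 fell by 0.91 with iSDmut against pMN. Ldha and Rbp4 were called in all 12 alternative fits of the 8-week comparison, and Rbp4 in all 11 of the 4-week comparison.

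Genes whose level across libraries was most like that of a member were found by Pearson's r of log2 CPM among 12787 genes in the 9 islet libraries, as a description of points that share these libraries. For Gast they included Ttc25 (r 0.992) and Dlk1 (0.988). Ttc25, a cilium gene, lies on chromosome 11 at 100545607 to 100572568 (GRCm38), 211.2 kb from the Gast start. Ttc25 had 37 and 48 counts in 8-week controls and 108, 964 and 1220 in betaSDmut replicates 1 to 3. Dlk1, which encodes a Notch-related membrane protein, had 83 and 51 counts in controls and 386, 4278 and 4936 in the mutants. In both, replicate 1 lay above the controls and far below replicates 2 and 3, a shape that their choice by likeness to Gast over these libraries builds in. Neither was called (log2 fold change 3.93 and 5.33, edgeR adjusted p 0.141 and 0.102). For Aldh1a3 they were St7 (r 0.957), Stoml2 (0.95) and Metrnl (0.945). For Neurog3 they were F5 (0.939), Sst (0.931) and Zfp532 (0.902), and for Cck Pgm2l1 (0.932), Cacnb4 (0.914) and 6330403A02Rik (0.906).

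Over the 7 E15.5 libraries, among 13666 genes, the 3 most like each member were Itm2a, Lynx1 and Rnf14 for Aldh1a3 (r 0.979 to 0.985), Gnptg, Poll and Ddx49 for Gast (0.988 to 0.995), Homer2, Sipa1l3 and Aqp4 for Neurog3 (0.986 to 0.987) and Gabpa, Ppm1l and Usp46 for Cck (0.945 to 0.972). Over the 8 progenitor libraries, among 12178 genes, they were Capn6, Itga9 and Ube2e2 for Aldh1a3 (0.961 to 0.974), Rab31, Dzip1l and Gm10664 for Neurog3 (0.955 to 0.967) and Tmem8, Narfl and Tsen54 for Cck (0.95 to 0.97). No gene was named for the same member in more than 1 tissue.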

How the data were processed

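RNA sequencing of 24 libraries and ChIP-seq of MIN6 cells were analysed. The authors deposited raw read counts per gene, FPKM per library for islets and progenitors, log2 CPM values and read counts at ChIP-seq events, and tables of their own fold changes with p-values, log2 fold changes and calls written as a score of 0 or 1. Per the submitters' processing notes, STAR, Cufflinks, DESeq2, edgeR 3.20.9, limma 3.34.9, bedtools 2.17.0 and mm10 were used; the counting tool and its strand setting are not given in the sources used here. The log base of the deposited site values was checked against the event counts (slope 1.0023 on log2 CPM). For 4-week islets the molecule is given as genomic DNA, but the deposited values are RNA counts by gene.

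Counts were tested with edgeR 4.0.16 (R 4.3.3): TMM, filterByExpr (minimum count 10), robust quasi-likelihood fit, Benjamini-Hochberg over all genes of a table at 0.05. Standard errors were taken from the F statistic. Islet comparisons used age-matched libraries, the difference of islet effects all 9, and progenitor comparisons all 8 in a model of 3 groups. The fits were tested on simulated data. Alternatives were RLE factors, total library size, no filter, at least 1 CPM, DESeq2 1.42.0, a replicate block, fits without each library or without the 2 muscle libraries, other model groupings, lane 2 alone, other site distances and a prior count of 5.

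The main fits held no pairing of libraries, which entered only through the replicate block as an alternative. Same-numbered pMN and iNkx2.2 libraries, numbered in the titles, deviated together (r 0.514, 0.484 and 0.547), so their numbers were taken as pairs. Other shared numbers were not: those in the E15.5 titles gave r from -0.573 to 0.027, and those of iSDmut 0.335 and 0.0479 with pMN and 0.326 and 0.11 with iNkx2.2. Sites were placed on GRCm38, the mm10 assembly, with GENCODE M21, and the shown windows hold 300 bases. The members and lists were chosen with earlier results of these data known. Named beside the members are list genes past the threshold (at most 5 per list and comparison, some by counts only), the 3 genes most like each member with a mean log2 CPM of at least 1, and sites within 100 kb. Fam241b and the inverted repeat were added after the data were seen, as were the levels of Ttc25, Dlk1 and Sst. Intervals and floors cover counting error only. Some genes that these rules name are not reported here. The input library, the E15.5 table of normalized counts and the deposited description file were not used.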

Additional observations from a re-analysis of the deposited data

Results flagged for a closer look

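Aldh1a3 in E15.5 SDmut replicate 2 was at 11.1 CPM, far above the other 3 mutants (0.739 to 2.40 CPM). The gap to the next library was 0.84 of the group's range, above the 95% critical value of Dixon for 4 samples. Chance gives such a gap in about 1 of 20 groups, and 4 gene and group pairs were examined. The same library had the highest summed level of muscle markers (4949 CPM), and control 3, with 4299 CPM, had the highest Aldh1a3 of the controls (8.67 CPM). Without SDmut replicate 2 the log2 fold change of Aldh1a3 was -1.49 (SE 0.66, edgeR adjusted p 0.83), against -0.22 with it. The part of muscle in the level of Aldh1a3 was not tested.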

How the results depend on the processing

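Of the member values under alternatives, 250 kept their direction and side of the threshold, 9 lost and 6 gained a call, and 10 changed sign, none of which was called. Aldh1a3 in betaSDmut lost its call with the replicate block (3.89, edgeR adjusted p 0.0538), and leaving out a library gave 3.65 to 4.82. Gast in betaSDmut gained a call under DESeq2 (3.60) and in the model of all 4 islet groups (3.57), and leaving out a library gave 3.09 to 4.04 in betaSDmut and 2.35 to 3.30 for the difference of islet effects. Neurog3 in iNkx2.2 lost its call under DESeq2 (2.42), and leaving out a library gave 1.93 to 2.88. Neurog3 in iSDmut against iNkx2.2 gained one without a count filter (-4.34) and with the replicate block (-4.56). Sign changes were Aldh1a3 at E15.5 (0.26 with the replicate block, -1.49 to 0.56 without a library), Neurog3 in the difference of islet effects (0.011 with the block, -0.73 to 0.42 without a library; 0.05 without 4-week control 2 or betaSDmut 3 and 0.42 without 8-week control 1), and Aldh1a3 in iSDmut (-1.85 to 2.45 against pMN and -2.24 to 1.61 against iNkx2.2). The cause was not tested.

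The number of genes called by edgeR moved with the setting. At E15.5 it was 1, against 2 with total library size, 25 with DESeq2, 0 with the replicate block and 0 to 2 without a library. For betaSDmut it was 1224, against 2041 with DESeq2, 757 with the block and 37 to 2765 without a library. For betaKO it was 233, against 127 with total library size, 372 without a filter, 770 with DESeq2, 428 in the model of 4 groups and 4 to 478 without a library. For the difference of islet effects it was 194, against 653 with DESeq2, 87 with the block and 0 to 343 without a library. For iNkx2.2 it was 1486, against 2271 with DESeq2, 4629 with the block, 960 within lane 2 and 412 to 1604 without a library. For iSDmut against pMN it was 554, against 1382 with DESeq2, 2626 with the block, 295 with 2 groups and 171 to 471 without a library. For iSDmut against iNkx2.2 it was 44, against 145 without a filter, 473 with DESeq2, 528 with the block, 13 with 2 groups and 1 to 467 without a library. Outside pMN and iNkx2.2 the shared numbers, including those in the E15.5 titles and the iSDmut replicate numbers, were not taken as pairs. The block values there, also the call gained by Neurog3 in iSDmut, thus rest on a pairing that was not established. The block fit of iNkx2.2 against pMN held the iSDmut libraries too, blocked by the same numbers. With the replicate block Cck in betaSDmut was at -4.37 (edgeR adjusted p 0.0751). Within 10 or 50 kb Neurog3 and Cck had 0 final sites. With total library size the median of all genes was at most 0.18 (difference of islet effects, 0.01 with TMM), and no member changed sign with it.

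Precision is limited by 2 or 3 libraries per islet and progenitor group and by low counts: in progenitors every member, and in islets Gast and Cck, rest on few reads. Fits that leave a group with 1 library assume that it varies like the others.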
